A study of Rattus norvegicus with 4 samples.

Results

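The 7 lineage-deciding transcription factors of the anterior pituitary examined here were Pou1f1, Tbx19, Nr5a1, Gata2, Neurod1, Neurod4 and Pax7, chosen by gene symbol as 7 of the 30058 genes counted. Their levels, the share of cells in which they were detected and their detection together in the same cell were followed across the cell types. These types were set by marker genes that include only Pax7 among the factors, and that only in the melanotroph rule. Cells that met that rule were taken out of the other types. Single-cell RNA-seq libraries came from dispersed anterior pituitary cells of Sprague Dawley rats, a pool of 4 females in diestrus at day 44 of age and a pool of 4 males at day 59, with no treatment or genetic change. Each pool was loaded on 2 lanes (lanes 1 and 2 female, lanes 3 and 4 male), so lanes are technical replicates, their p-values measure the spread between lanes, and sex cannot be told apart from pool and age.

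These factors belong to the homeodomain, T-box, nuclear receptor, zinc finger and basic helix-loop-helix families and switch on the hormone genes of particular pituitary cells. Pou1f1 (Pit-1) is required for cells making growth hormone, prolactin and thyrotropin, Tbx19 (Tpit) for those making proopiomelanocortin, and Nr5a1 (SF-1) for gonadotrophs. Gata2 acts in gonadotrophs and thyrotrophs, Neurod1 and Neurod4 in early endocrine differentiation, and Pax7 sets melanotrophs of the intermediate lobe apart from corticotrophs.

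The hormone types were somatotrophs (S, growth hormone), lactotrophs (L, prolactin), thyrotrophs (T, thyrotropin), gonadotrophs (G, luteinizing and follicle-stimulating hormone) and corticotrophs (C, corticotropin), and the others folliculostellate cells (FSC), leukocytes (Le), endothelial cells (EC) and erythrocytes (E). Of 7861 cells, 6843 were used in these 9 types, among them 792 C, 237 G, 88 T, 1886 S, 485 L and 2314 FSC, and a further 55 melanotrophs (Mel) were kept apart. Lanes held 1861 to 2085 cells and 18955509 to 24048021 unique molecular identifiers (UMIs, counted molecules), with medians of 7971 to 9413 UMIs per cell. The Y-linked gene Eif2s3y was at 87.0 and 87.3 CPM (the usual scaling of a gene's UMIs to a fixed total, here of a cell type or lane) in lanes 3 and 4 and at 0 and 0.0492 CPM in lanes 1 and 2. Ddx3y, also Y-linked, was at 0.394 to 0.582 CPM in all 4 lanes and did not separate them. The study reported both genes in male pituitary cells only, and the reason for the difference in Ddx3y was not tested. Of the barcode sequences, 30 occurred in more than 1 lane. Genes of the type rules, whose detection the rules favour, were found at unequal shares: Gnrhr in 95.8% of G, S100b in 91.3% of FSC, Crhr1 in 90.2% of C and Agtr1b in 67.0% of L, but Trhr in 42.0% of T and Ghrhr in 38.7% of S. Thyrotrophs were the least secure class, since Tshb was detected in 88.6% of them and lay above its threshold in 64 of 88. Of the 88 T, 18 were given no type by the marker rules and were typed by their nearest neighbours. That held for 48 of 792 C, 3 of 237 G, 77 of 1886 S and 5 of 485 L. Hormone transcripts were also found outside their own cells, Gh1 for instance in 100% of C at 2805 CPM.

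The proximal promoters of the hormone genes hold short stretches that resemble known binding motifs of the factors. Of 7 hormone genes, 5 (Prl, Pomc, Cga, Lhb and Tshb) had a promoter in the RefSeq table (build GRCr8, 250 bases before to 50 bases after the transcription start). Both strands were searched. The motif of the POU homeodomain factor Pou1f1 was taken as TATNCAT. The zinc finger factor Gata2 was searched as AGATAA. For the nuclear receptor Nr5a1 the letters were AAGGTCA. The T-box factor Tbx19 was given the T-box core TCACACC. Neurod1 was searched by the E-box CAGATG. No motif overlaps another in these windows. Matches are shown with 10 flanking bases on each side because these hormone genes mark the cells in which the factors were measured. Capitals mark the motif or its reverse complement, read 5′ to 3′ on the strand of the gene.
Prl, Pou1f1 motif, chr17:38298225-38298251, minus strand, first motif base at -24: cttcctgaatATGAATAagaaataaaa
Prl, Gata2 motif, chr17:38298361-38298386, minus strand, first motif base at -159: tttaaaggaaTTATCTtctatacgtt
Tshb, Gata2 motif, chr2:192918093-192918118, minus strand, first motif base at -54: gatgcttttcAGATAAgaaagcagca
Pomc, Nr5a1 motif, chr6:32659273-32659299, plus strand, first motif base at -70: cgctgccaggAAGGTCAcgtccaaggc
Pomc, Neurod1 motif, chr6:32659165-32659190, plus strand, first motif base at -178: tttccaggcaCATCTGctgtgcgcgc
Lhb, Nr5a1 motif, chr1:105037323-105037349, plus strand, first motif base at -124: ctggcttttcTGACCTTgtctgtctcg
Such letters are common. Of the 33469 promoters in the table, 9.88% held the Pou1f1 motif, 11.6% that of Gata2, 4.61% that of Nr5a1, 3.83% that of Tbx19 and 16.6% that of Neurod1. The Tbx19 motif was in none of the 5 hormone promoters, Cga held none of the 5 motifs, and a match or its absence is a description of the letters alone.

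Expression was compared between the 6 pituitary types on UMI sums per type and lane with edgeR's quasi-likelihood test, 2-sided and with lane as a block, calling genes at a Benjamini-Hochberg adjusted p under 0.001 over 12907 genes. Pax7 had too few UMIs to enter. The other 6 factors gave 49 calls in 90 tests over 15 contrasts: Gata2 in 11, Neurod1 and Pou1f1 in 10 each, Neurod4 in 7, Nr5a1 in 6 and Tbx19 in 5. Of the 6 factors, 5 differed between C and G, between C and T and between C and S, where 12.4%, 6.82% and 21.4% of all genes were called. Between C and L and between C and FSC, 4 and 2 factors were called against 18.1% and 40.1% of genes. Gonadotrophs differed in 3 factors from T, in 4 from S, in 4 from L and in 4 from FSC, with 2.8%, 15.1%, 12.5% and 29.7% of genes called. Among the Pou1f1 types, 1 factor was called between T and S, 3 between T and L and 1 between S and L, beside 5.22%, 5.22% and 8.83% of genes. Against FSC, 3 factors were called in T, 3 in S and 2 in L, beside 20%, 46% and 35% of genes, so that the counts for S and L, like that for C minus FSC, lay close to or under their background. The sums of T rest on 18 to 28 cells per lane. In bulk sums such as these, fewer cells with a factor and less RNA of it per cell cannot be told apart, and the detected shares below are given for that reason.

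**Figure D1:**
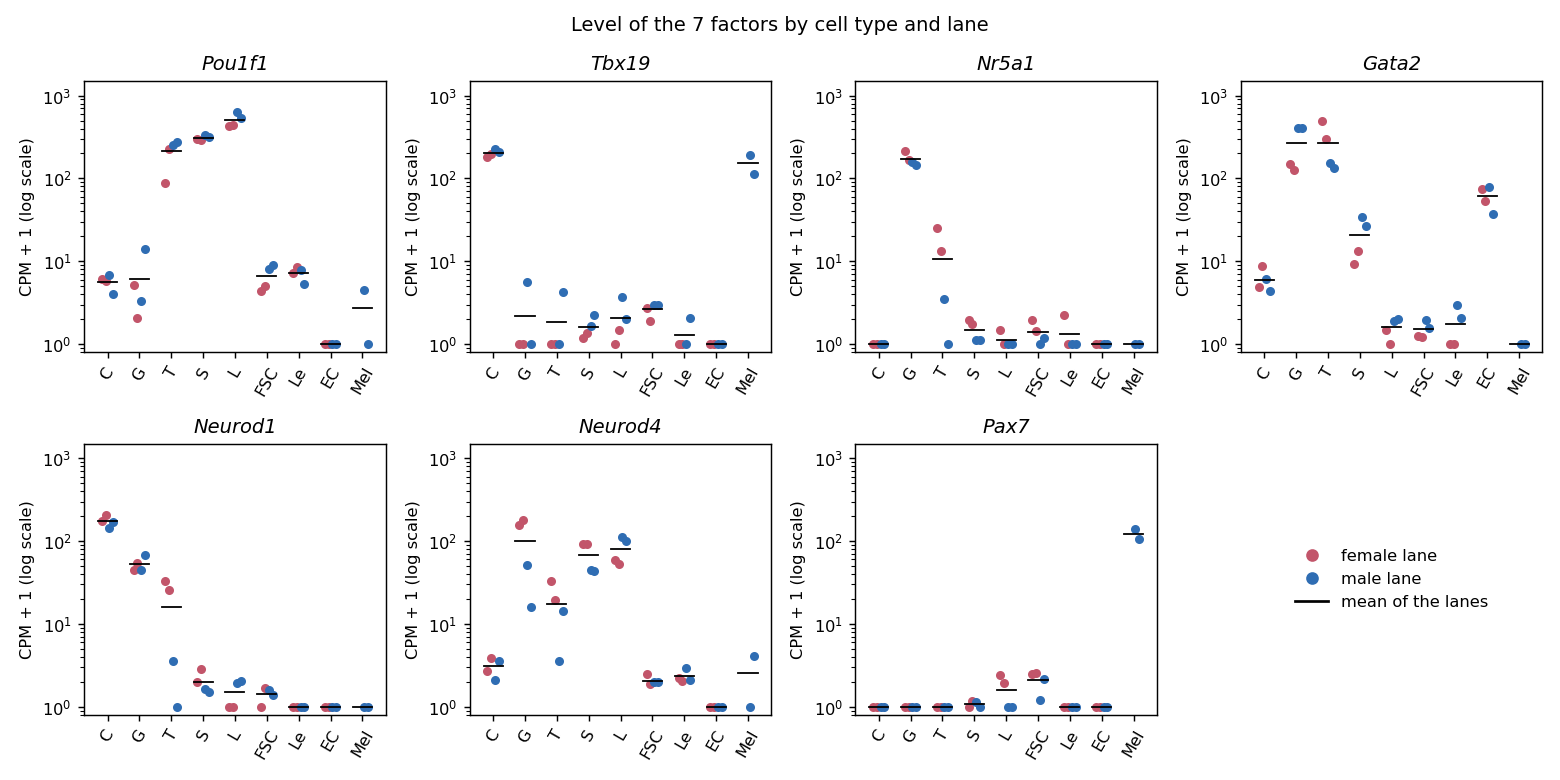
Level of each factor (CPM + 1, log axis) by cell type; each point is 1 lane, coloured by sex, and the dash is the mean of the lanes, with Mel shown for the 2 male lanes alone. Pou1f1 is high in S, L and T, Tbx19 in C and Mel, Nr5a1 in G, Gata2 in G, T and EC, Neurod1 in C and G, Neurod4 in G, S and L, and Pax7 in Mel.

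Pou1f1, the POU homeodomain factor of the somatotroph, lactotroph and thyrotroph lineages, was highest in L, then S, then T. Its level in L was 429 and 445 CPM in the female lanes and 638 and 539 CPM in the male lanes, a mean of 513 ± 96.5 CPM (SD, n = 4 lanes). In S it was 298, 286, 329.5 and 318 CPM in lanes 1 to 4, or 308 ± 19.5 CPM, and no lane of S reached the lowest lane of L. In T it was 88.2, 228, 255 and 271 CPM, 211 ± 83.5 CPM, all below the lowest lane of S, with lane 1 far under the other three. The log2 differences from FSC were 6.99 ± 0.27 in L (SE, adjusted p = 3.55e-17), 6.25 ± 0.26 in S (7.32e-17) and 5.25 ± 0.28 in T (6.75e-14). Thyrotrophs were lower than L by a log2 difference of -1.74 ± 0.23 (adjusted p = 3.44e-06), whereas the neighbouring steps missed the limit, at -0.74 ± 0.19 for S minus L (0.00588) and -1.01 ± 0.22 for T minus S (0.00212). The call between T and L was lost under 1 of 14 alternatives.

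At least 1 Pou1f1 UMI was present in 460 of 485 L (94.8%, exact 95% Clopper-Pearson interval 92.5 to 96.6%, which covers counting error only), in 1723 of 1886 S (91.4%) and in 58 of 88 T (65.9%, 55.0 to 75.7%). With each cell thinned to 4000 UMIs the shares were 79.3%, 63.7% and 47.1%. By lane the share in T was 44.4%, 57.9%, 78.6% and 73.9%. Elsewhere it was low, at 5.05% of C, 3.80% of G, 3.85% of FSC and 4.01% of Le, at median depths of 11469.5 (C), 10008 (G), 6894 (FSC) and 6499.5 (Le) UMIs. Leukocytes should lack the gene, and the shares in C, G and FSC are not read as expression above theirs. It was rarer still in E, in 1 of 361 cells (0.277%) at a median of 8246 UMIs, and absent from 132 EC, which allows a share of up to 2.27% at a median of 7335.5 UMIs. The source of the molecules outside L, S and T was not tested.

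Tbx19, the T-box factor of the proopiomelanocortin lineage, was confined in level to C and melanotrophs: C and the male melanotrophs held 204 ± 19.3 CPM (n = 4 lanes) and 151 CPM, and no other type had a lane above 4.64 CPM. The lanes of C read 183, 194, 227 and 209 CPM, and those of male melanotrophs 193 and 113 CPM. Corticotrophs exceeded G by a log2 difference of 8.04 ± 0.40 (adjusted p = 3.95e-14), S by 7.85 ± 0.26 (4.73e-18), T by 7.78 ± 0.52 (3.08e-11), L by 7.49 ± 0.33 (2.72e-15) and FSC by 7.08 ± 0.24 (2.09e-18). Of the 1974 Tbx19 UMIs in the cells used, G held 0.101%, T 0.0507%, L 0.253%, S 0.912% and FSC 1.57%. The size of the differences from G, T and L thus rests on few counts. None of the 10 contrasts without C was called for Tbx19. It was detected in 639 of 792 C (80.7%; 53.2% after thinning) and in 44 of 55 melanotrophs (80.0%, 67.0 to 89.6%).

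Neurod1, a basic helix-loop-helix activator that works with Tbx19 on Pomc, was highest in C and second in G. Corticotroph lanes read 175, 204, 141 and 170.2 CPM and gonadotroph lanes 44.0, 52.8, 44.1 and 66.5 CPM, with no overlap. The log2 difference of C over G was 1.83 ± 0.21 (adjusted p = 2.25e-07), that of C over S was 7.13 ± 0.27 (1.19e-16), and that of G over S was 5.30 ± 0.33 (2.14e-12). Neurod1 was detected in 59.3% of C and 40.9% of G, and in 34.9% and 17.5% after thinning. The call between C and G was lost under 1 alternative. In T, 9 UMIs were counted in 7 of 88 cells, all of them cells with Tshb below its threshold. Among the 64 T with Tshb above it there was no Neurod1 UMI, and the call of T over FSC (log2 difference 4.34 ± 0.88, adjusted p = 2.57e-04) did not survive when T was limited to those cells or when cells typed by their neighbours were left out.

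Pax7, the paired-box factor of melanotrophs, was absent from all 792 C, 237 G and 88 T, which allows shares of up to 0.379%, 1.27% and 3.41%. Cells with 2 of Pomc, Pcsk2 and Pax7 above threshold had been taken out of these types, however. The absence from C, which hold Pomc, was thus favoured by the rule, and the limit for C is no independent measure. Because Pax7 is part of the melanotroph rule, its share was taken in melanotrophs set by Pomc and Pcsk2 alone: it was detected in 30 of 52 male cells (57.7%, exact 95% interval 43.2 to 71.3%) and in 0 of 2 female cells. Isolated molecules occurred in 19 of 2314 FSC (20 UMIs), in 5 female L and in 2 S. Melanotrophs belong to the intermediate lobe, and 53 of the 55 came from the male lanes.

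Both proopiomelanocortin types of the male lanes held Tbx19, and Neurod1 was detected in C alone of the pair. In melanotrophs minus C, 1 of the 6 factors was called, against 2.91% of 13574 genes. Neurod1 had 0 UMIs in 53 male melanotrophs, which allows up to 5.66% of cells with a UMI, against 843 UMIs (156 CPM) in 458 male C. Male C were at least 31.7-fold higher than the floor of 3 counts over the male melanotrophs (adjusted p = 9.03e-08, edgeR). Tbx19 was not called, with a log2 difference of -0.68 ± 0.26 (adjusted p = 0.104). The pair of female melanotrophs went the other way, since 1 of them held 15 Neurod1 UMIs and neither held Pax7.

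Nr5a1, the orphan nuclear receptor of the gonadotroph and of steroidogenic tissue, was highest in G in every lane. Its level there was 214, 166, 155 and 146 CPM, or 170.3 ± 30.2 CPM, against at most 24.1 CPM in any lane of any other type. Corticotrophs had no Nr5a1 UMI, so that G was at least 549-fold higher than the floor of 3 counts over all C (adjusted p = 2.45e-14). The log2 differences of G were 8.08 ± 0.30 over S (2.62e-15), 9.37 ± 0.46 over L (4.71e-13) and 4.73 ± 0.41 over T (3.50e-08). Of the 522 Nr5a1 UMIs in the cells used, S held 2.11%, T 1.15% and L 0.192%. The size of these differences thus rests on few counts. Detection was in 184 of 237 G (77.6%, 71.8 to 82.8%) and in 50.9% after thinning. The 6 UMIs in T fell in 6 of 88 cells, at 24.1, 12.3, 2.53 and 0 CPM over the lanes, and 4 of the 6 cells had Tshb below its threshold. The call of C below T was lost under 10 of 14 alternatives.

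Gata2, a zinc finger factor of gonadotrophs and thyrotrophs that is also known from endothelium, was high in G and T, lower in EC and low in S. Gonadotroph lanes read 149 and 126 CPM in females and 401 and 403 CPM in males, whereas thyrotroph lanes read 489 and 296 CPM in females and 152 and 132 CPM in males. Over the 4 lanes the means were 269.8 ± 153 CPM in G and 267 ± 165 CPM in T, and their log2 difference of 0.14 ± 0.35 was not called (adjusted p = 0.873). Somatotroph lanes read 8.14, 12.4, 32.8 and 25.9 CPM, below every lane of G and T. G exceeded S by a log2 difference of 3.26 ± 0.32 (adjusted p = 9.70e-09) and T exceeded S by 3.12 ± 0.37 (8.95e-07), while S exceeded L by 5.11 ± 0.84 (4.57e-05) and FSC by 5.57 ± 0.56 (2.28e-09). Of the 1537 Gata2 UMIs in the cells used, L held 0.195% and FSC 0.651%, so the size of the differences from L and FSC rests on few counts. The calls of T over S and of S over L were each lost under 1 of 14 alternatives. Endothelial cells, which were described but not tested, held 72.7, 52.9, 78.0 and 36.0 CPM.

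Gata2 was detected in 70 of 88 T (79.5%), 177 of 237 G (74.7%), 47 of 132 EC (35.6%) and 401 of 1886 S (21.3%, 19.4 to 23.2%). After thinning the shares were 61.2%, 53.0%, 21.7% and 7.27%. The share in S lay well over that in C (3.66%) and Le (0.547%). Of all Gata2 UMIs in the cells used, G held 40.5%, S 37.2% and T 13.6%. The order of G and S in these totals turned with sex. In the female lanes G held 142 and 119 UMIs against 42 and 67 in S, and in the male lanes 173 and 188 against 250 and 213. Such totals depend on the cells captured, at 75, 70, 46 and 46 G and 440, 436, 487 and 523 S in lanes 1 to 4. In CPM, G lay above S in every lane.

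Neurod4 (Math3), a basic helix-loop-helix factor linked to somatotroph maturation, was shared by G, S and L. Its level was 90.5, 92.0, 44.4 and 42.2 CPM in S, 58.1, 52.6, 109.8 and 98.8 CPM in L, and 157, 179.6, 51.0 and 15.01 CPM in G. Over both sexes the lanes of these types overlapped, and none of the contrasts among them was called: the log2 difference was -0.31 ± 0.29 for S minus L (adjusted p = 0.484), 0.24 ± 0.30 for G minus S (0.584) and -0.07 ± 0.32 for G minus L (0.904). Within the female lanes G was highest, then S, then L, without overlap. Within the male lanes L lay above both S and G. Each was far over FSC, by 6.34 ± 0.44 in S (1.68e-12), 6.64 ± 0.45 in L (2.83e-12) and 6.57 ± 0.47 in G (9.55e-12). Thyrotrophs held 32.1, 18.5, 2.53 and 13.2 CPM, lower than L by a log2 difference of -3.07 ± 0.61 (adjusted p = 6.73e-04), a call lost under 7 of 14 alternatives. The detected share was 53.2% of L, 50.1% of S, 47.3% of G and 10.2% of T, and 26.6%, 22.2%, 31.2% and 3.53% after thinning.

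**Figure D2:**
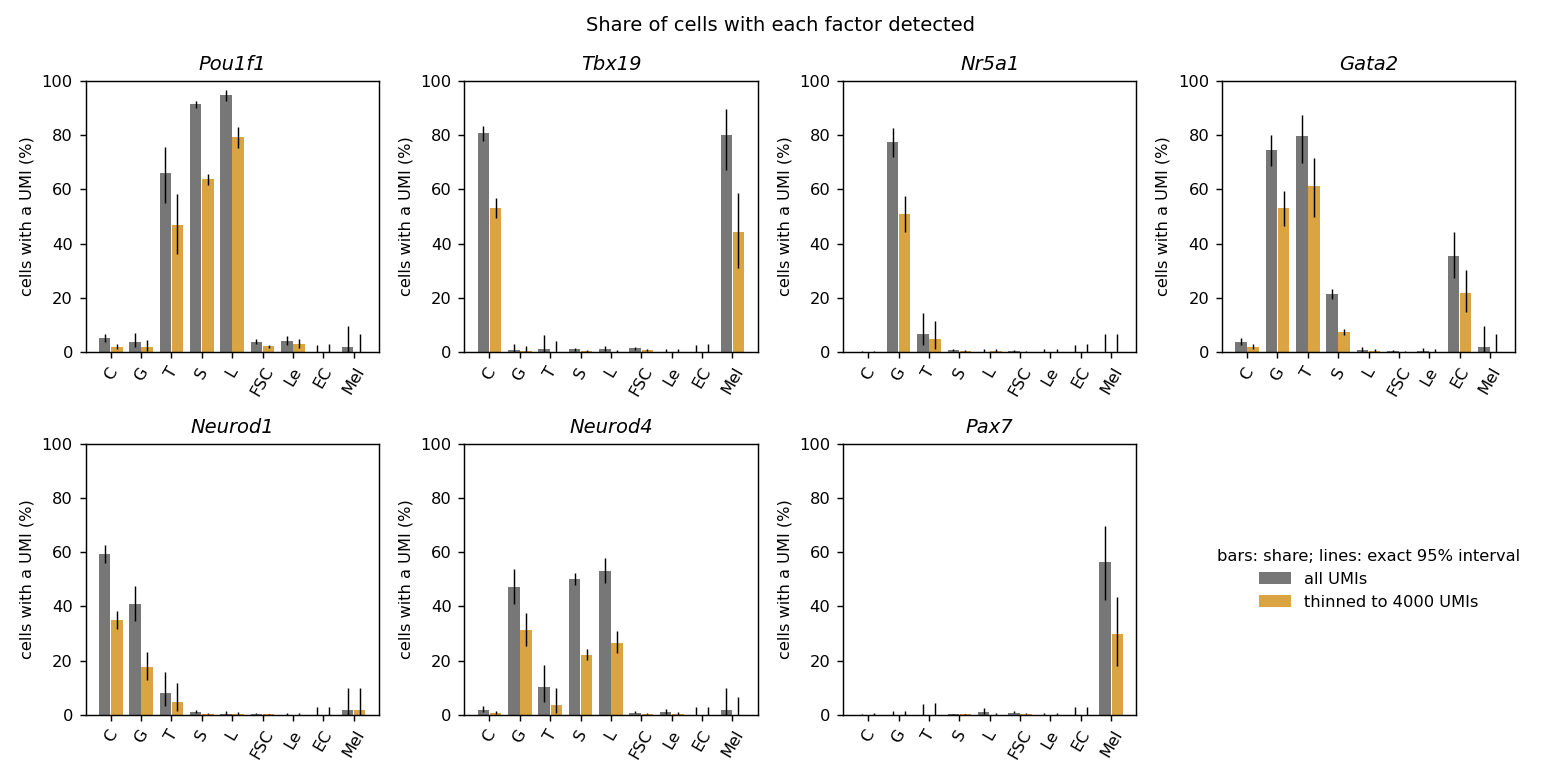
Share of cells (%) with at least 1 UMI of each factor by cell type, with all UMIs (grey) and with each cell thinned to 4000 UMIs (gold); lines are exact 95% intervals over cells. Pou1f1 falls from 94.8% to 79.3% in L and Gata2 from 21.3% to 7.27% in S.

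The 3 factors that define separate lineages, Pou1f1, Tbx19 and Nr5a1, were seldom found in the same cell. At least 1 of them was detected in 3079 of 3488 hormone cells (88.3%), and 2 or more in 78 cells (2.24%, exact 95% interval 1.77 to 2.78%). Pou1f1 with Tbx19 made up 54 of these cells, Pou1f1 with Nr5a1 22 and Tbx19 with Nr5a1 2. When at least 2 UMIs of each factor were asked for, 2 cells were left. Cells that met the rules of more than 1 type had 2 or more of the factors in 41 of 207 cells (19.8%) at a median of 17029 UMIs, and called doublets in 24 of 190 (12.6%) at 17157 UMIs, against a median of 12384 UMIs in the hormone cells.

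Within a type, cells with a factor and cells without it held the next factor at shares that mostly changed order from lane to lane. Among cells thinned to 4000 UMIs, Neurod1 was found in 35.8% of the C with Tbx19 and in 33.9% of those without. In G, Gata2 was found in 47.9% of cells with Nr5a1 and 58.3% of those without, and Neurod4 in 22.6% of cells with Gata2 and 40.9% of those without. Gata2 and Neurod4 differ between the sexes in G in opposite directions, and by lane the shares with and without Gata2 were 40.7% and 43.5%, 32.1% and 56.1%, 16.2% and 11.1%, and 6.25% and 7.14%. In T, Gata2 was found in 57.5% of cells with Pou1f1 and 64.4% of those without, and in S in 6.80% and 8.10%. In S, Neurod4 was found in 23.2% of cells with Pou1f1 and 20.5% of those without, the pair that was higher in all 4 lanes. No test was made over cells, since cells of a lane are not replicates.

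**Figure D3:**
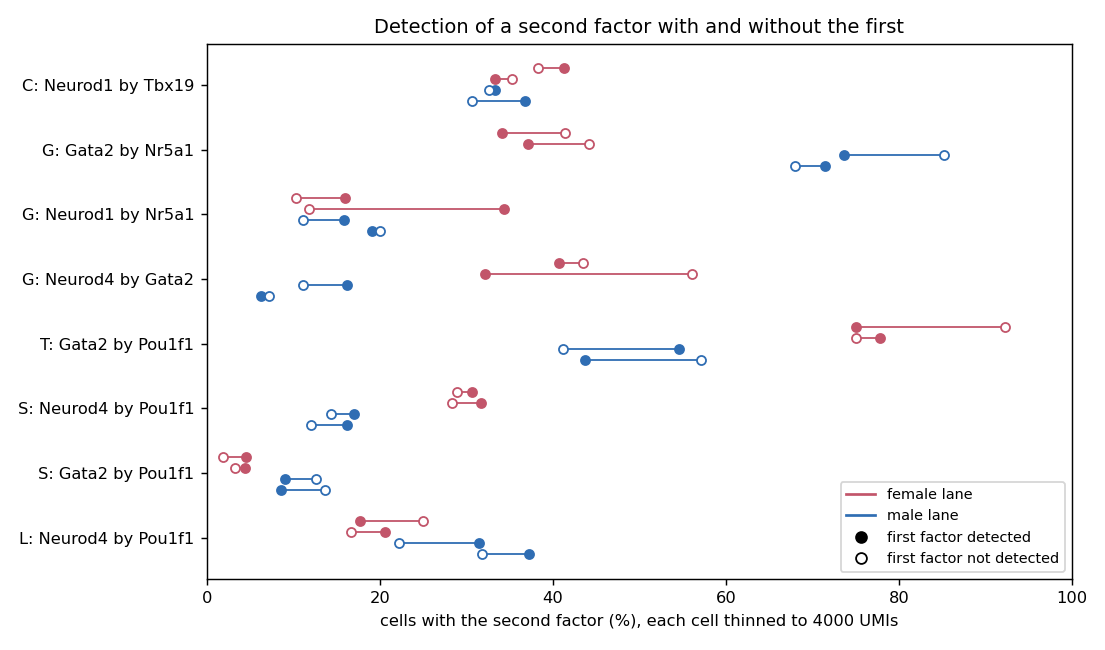
Share of cells (%) with the second factor detected among cells in which the first was (filled) or was not (open) detected, by type. Cells were thinned to 4000 UMIs, and each line joins the values of a pair in 1 lane, coloured by sex. In S, Neurod4 is higher with Pou1f1 than without it in all 4 lanes. In G, Neurod4 with and without Gata2 is at 40.7% and 43.5% in lane 1 and 32.1% and 56.1% in lane 2. It is at 16.2% and 11.1% in lane 3 and 6.25% and 7.14% in lane 4.

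Male minus female differences were tested within each type on 2 lanes a sex, with edgeR on 3195 to 12888 genes. Gata2 was higher in males in G and S and lower in T, Neurod4 was lower in males in S and G, and these were the 5 calls in 16 tests. In G, 2 of 4 factors tested were called, where 4.36% of genes were. In S it was 2 of 3, beside 11% of genes, and in T 1 of 2, beside 1.53%. No factor was called in C (4 tested), L (2 tested) or FSC (1 tested), where 0.686%, 18.4% and 2.8% of genes were called.

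Gata2 rose in male G from 149 and 126 CPM to 401 and 403 CPM, a log2 difference of 1.29 ± 0.13 (adjusted p = 6.93e-06, edgeR). It rose in male S from 8.14 and 12.4 CPM to 32.8 and 25.9 CPM, by 1.45 ± 0.16 (2.28e-09), and the detected share from 8.41% and 12.4% to 32.9% and 28.7% of S. The median depth of S was 11572 UMIs in females and 15464 in males, and that of G 12451 and 8858.

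In T the same factor was lower in males, at 489 and 296 against 152 and 132 CPM, a log2 difference of -1.31 ± 0.25 (adjusted p = 2.40e-04). The call was lost under 9 of 12 alternatives, among them leaving out lane 1, lane 3 or lane 4, leaving out cells typed by their neighbours (-0.81) and keeping only T with Tshb above its threshold (-0.90, adjusted p = 0.104). Female T held 10863 and 24545 CPM of Tshb and a median of 6270 UMIs, male T 81831 and 76191 CPM and 13034 UMIs, and the part of these differences in the result was not tested. In the 64 T with Tshb above its threshold Gata2 was at 313 and 234 CPM in females and 148 and 136 CPM in males.

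Neurod4 fell in male S from 90.5 and 92.0 CPM to 44.4 and 42.2 CPM, a log2 difference of -1.13 ± 0.08 (adjusted p = 4.17e-15, edgeR). In male G it fell from 157 and 179.6 CPM to 51.0 and 15.01 CPM, by a log2 difference of -2.63 ± 0.30 (2.30e-05), and from 62.7% and 68.6% to 21.7% and 15.2% of cells. DESeq2 did not call it in G (adjusted p = 0.0121). In L the lanes ran the other way, at 58.1 and 52.6 CPM in females against 109.8 and 98.8 CPM in males, while the scaled log2 difference was 0.27 ± 0.15 and not called (adjusted p = 0.164). Hormone transcripts took 32.4% and 31.4% of UMIs in female L and 18.9% and 17.9% in male L. Scaled by library size alone, the median of all genes in L moved to 0.67, and Neurod4 stood at 0.92 (adjusted p = 4.20e-07).

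Pou1f1 in L depended on that scaling in direction, with a log2 difference of -0.22 ± 0.08 (adjusted p = 0.0258, not called) that turned to 0.43 (4.02e-06) by library size alone, below the median shift of all genes. The remaining factors were not called between the sexes: Neurod1 in C at -0.35 ± 0.09 (adjusted p = 0.0364), Nr5a1 in G at -0.59 ± 0.16 (0.0201), Tbx19 in C at 0.15 ± 0.08 (0.515), Pou1f1 in T at 0.78 ± 0.28 (0.106) and Pou1f1 in S at 0.09 ± 0.04 (0.126).

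The sex differences themselves differed between types for 2 factors. The male minus female log2 difference of Neurod4 was higher in L than in S by 1.42 ± 0.19 (adjusted p = 6.88e-08) and higher in L than in G by 2.94 ± 0.30 (1.53e-10), where 7.88% and 3.06% of 13530 genes were called. Between S and G it differed by 1.52 ± 0.29 (3.41e-04), beside 1.4% of genes, a call lost without lane 2 (1.37), without lane 4 (0.92), under scaling by library size (1.30) and in cells thinned to 4000 UMIs (1.45). For Gata2, T differed from G by -2.43 ± 0.27 (9.41e-09) and from S by -2.60 ± 0.29 (6.37e-09), beside 0.902% and 0.407% of genes. Both kept their call with T limited to cells with Tshb above its threshold (-1.86 and -2.03) and without cells typed by their neighbours (-1.79 and -2.04). These last contrasts were added after the values of the separate types had been seen.

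**Figure D4:**
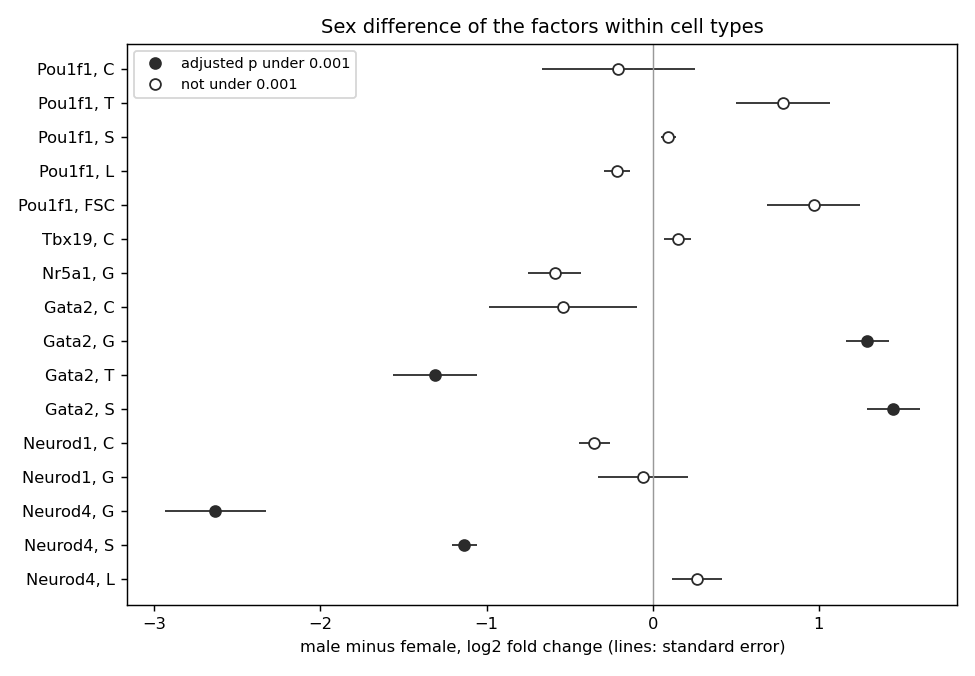
Male minus female log2 difference of each factor within a cell type (edgeR); points are estimates with bars of 1 SE, filled where the adjusted p is under 0.001. Gata2 lies at 1.29 in G and 1.45 in S but at -1.31 in T, and Neurod4 at -2.63 in G, -1.13 in S and 0.27 in L.

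Somatotrophs with Gata2 were set against those without it, lane by lane, to see what else they expressed. The 401 cells with at least 1 Gata2 UMI and the 1485 without had medians of 15144 and 13312 UMIs. At the adjusted limit 15 of 11318 genes were called (0.133%), 7 higher and 8 lower in the cells with Gata2, and the 2 factors tested, Pou1f1 (-0.06) and Neurod4 (0.08), were not among them. Cga, the common subunit of the glycoprotein hormones, was higher by a log2 difference of 0.58 ± 0.06 (adjusted p = 7.14e-10), at 143, 197, 244 and 649 CPM in the cells with Gata2 and 121, 130.1, 172 and 365 CPM in those without. It was higher in all 4 lanes. Over all S, Cga was at 249 CPM, beside 308 CPM in C, 270 CPM in L, 1307 CPM in FSC and 76980 CPM in G. Pooled over lanes, S thus lay below C, L and FSC, which do not make these hormones. By lane it was below each of them in lanes 1 and 2 only. In lane 3 S held 198 CPM against 175 CPM in C. In lane 4 it held 450 CPM against 148 CPM in C and 177 CPM in L. The source of these molecules in S was not tested.

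The immediate-early genes Egr2 (0.83) and Fos (0.27) were also higher, with Nnat (0.62), Pcp4 (0.28), Wfdc1 (0.35) and Serpina3c (0.86). Hmgcs1, the next in rank, was not called (adjusted p = 0.00168). Tac1, the substance P precursor, was lower by a log2 difference of -1.18 ± 0.10 (1.24e-13), at 4.54, 7.68, 80.1 and 84.3 CPM against 41.5, 54.6, 149.6 and 185 CPM. Timp1 (-0.64), LOC100909539 (-0.30), RGD1566401 (-0.23), Gh1 (-0.21) and Cd63 (-0.20) were lower in every lane. The classes were set by detection of Gata2, and the part of the unequal Gh1 share in that detection was not tested.

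Hormone genes of the other Gata2 types were not called: Tshb at -0.10 ± 0.11 (adjusted p = 0.917), Lhb at -0.13 ± 0.10 (0.837) and Fshb at -0.34 ± 0.42 (0.924). Over all S, Tshb was at 35.2 CPM and Lhb at 69.9 CPM, beside 25.2 and 59.0 CPM in C. Ghrhr, the receptor for growth hormone-releasing hormone (-0.09), Prl (0.01) and Pomc (-0.02) were not called either. Trhr and Gnrhr, with 1 and 5 UMIs in the cells with Gata2, and the other 4 factors had too few counts to test. DESeq2 called 0 genes higher and 1 lower, so that none of the higher calls, Cga among them, was made by it. Leaving out 1 lane gave 7 genes (lane 3) to 23 genes (lane 2).

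Among 20 other regulators of pituitary lineages, 19 were tested between the types. The highest level lay in FSC for 8 of them, in G for 5, in T for 3, and in C, S, L and EC for 1 each. The FSC group held among others the early pituitary factors Lhx3 (87.3 ± 20.1 CPM) and Lhx4, with Zbtb20, Nr4a1 and Egr1. Gonadotrophs led for Foxl2 (80.1 ± 11.8 CPM), Nr0b1 (84.8 ± 25.1 CPM), Nhlh2 (74.7 ± 37.0 CPM), Insm1 and Eya3. Thyrotrophs led for Isl1 (169.9 ± 2.89 CPM), Pitx1 and Tef, but Isl1 in G (153 ± 36.0 CPM) and Pitx1 in G (294 ± 50.1 against 297 ± 73.8 CPM) lay within their spread. Corticotrophs led for Etv1 (139 ± 6.24 CPM), EC for Foxo1 and S for Hesx1 (1.85 ± 0.847 CPM). Lhx3 in L (74.2 ± 13.6 CPM), Nr0b1 in FSC (72.1 ± 8.56 CPM) and Etv1 in FSC (116 ± 39.5 CPM) differed from the leading type by less than the larger of the SDs over lanes. Between G and S, 10 of these 19 were called higher in G and 2 lower, beside 15.1% of all genes, and between G and T 2 were higher in G, namely Nhlh2 and Nr0b1, and none lower, beside 2.8%.

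Between the sexes, 5 of 15 regulators tested were called in S, 4 of 11 in L, 4 of 18 in FSC, 2 of 16 in G, 1 of 12 in T and 1 of 14 in C, where 11%, 18.4%, 2.8%, 4.36%, 1.53% and 0.686% of all genes were. Of these calls, 5 were for the orphan receptor Nr4a1 and 3 were for the early growth response gene Egr1, both of them genes that respond to stimulation within minutes. Nr4a1 was higher in male S (2.08), T (2.37) and L (0.95) and lower in male C (-1.17) and FSC (-0.58). In G, Nhlh2 was lower in males by a log2 difference of -1.48 ± 0.23 (adjusted p = 3.73e-04), as Neurod4 was.

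Most family paralogues of the factors gave few molecules, but Pax6 had 2213 UMIs and Pou2f1 600 over the types other than erythrocytes and melanotrophs. Of 13, Neurod2, Neurod6 and Gata1 (a symbol on more than 1 row, hence uncertain) had 0 UMIs, and 8 in all had under 50 UMIs. Pax6 was highest in FSC (104 ± 6.69 CPM), Gata3 in FSC (8.15 ± 2.49 CPM), Nr5a2 in EC (14.1 ± 3.31 CPM) and Tbx3 in T (10.9 ± 8.08 CPM).

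The genes most like a factor in mean level were ranked by Pearson's r among 15401 genes with at least 50 UMIs. Levels were taken over 8 cell types (log2 of CPM + 1, mean of the lanes), with erythrocytes and melanotrophs left out. This is a description over 8 points that share lanes. For Pou1f1 they were Mzb1 (r = 0.98), Vsnl1 (0.98) and Gsdma (0.97). Clrn1 (0.995), Reg3a (0.994) and Olr1417 (0.991) followed Tbx19, and Nhlh2 (0.998), LOC102552470 (0.996) and LOC102555247 (0.995) followed Nr5a1. For Neurod1 they were LOC102553021, Ssna1 and Serinc2 (each 0.97), and for Neurod4 Dscaml1 (0.98), Sel1l3 (0.97) and Actn2 (0.97). For Gata2 they were Fer (0.96), Nsf (0.96) and Ciao1 (0.95). Pearson's r takes no account of the size of the differences, and some of these genes varied little over the 8 types. In log2 of CPM + 1, Fer ran from 3.11 to 4.35, Ciao1 from 4.21 to 4.93 and Ssna1 from 5.68 to 6.65. Pax7, with melanotrophs left out, had only 27 UMIs, under the 50 asked of the other genes. On these isolated molecules it was most like Aldh1a1 (0.99), Cldn8 (0.99) and Colq (0.99), which are highest in FSC. That likeness does not describe Pax7 in melanotrophs.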

How the data were processed

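The authors dispersed anterior pituitaries, made 10x Genomics 3′ libraries and deposited raw UMI counts per gene and cell, made with Cell Ranger 2.1 on an NCBI annotation with 3′ ends extended and with the 4 lanes brought to equal mapped depth. Lanes were given a sex by the cell numbers per lane that the study states. From these deposited counts, cell types were rebuilt with the study's marker rules (Otsu thresholds on 256 bins per gene and sex). The 188 cells that the rules left without a type were typed by 30 neighbours, and doublets and outliers were removed. The rules of the hormone types name no factor. Cells that met the melanotroph rule, which names Pax7, were taken out of the hormone types, and the neighbours were found on 1000 variable genes. Sums of counts per type and lane were tested with edgeR 4.0.16 (limma 3.58.1, R 4.3.3; TMM scaling, filterByExpr with a minimum count of 10, adjusted p under 0.001); DESeq2 1.42.0 was an alternative. Thresholds, thinning and shares were computed with Python 3.11.15, numpy 2.4.6, scipy 1.17.1, pandas 2.3.3 and scikit-learn 1.9.0, and figures with matplotlib 3.10.9. The fits between types, sexes and somatotroph classes were also run on simulated data. Only genes with many counts were changed there, so those runs do not bear on factors with few counts.

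Lane totals of 18955509 to 24048021 UMIs set the precision, and a count of 0 was given a limit of 3 counts. A level is the CPM over all UMIs of a type in a lane, so CPM and TMM-scaled differences can part where hormone transcripts take unequal shares. The SE of a log2 difference was taken as its size divided by the square root of the F statistic of the edgeR test. It is approximate, above all where a group had few counts.

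The 7 factors were named throughout, with 2 lists of other regulators and paralogues, the 3 genes most like each factor, and, in the comparison of somatotrophs, the 8 genes of smallest adjusted p in each direction and listed hormone and receptor genes. Members and lists were chosen with earlier results of these data known. Alternatives were scaling by library size, DESeq2, no filter on low counts, sums without 7 hormone genes, sums per type and sex, leaving out a lane, cells typed by neighbours or no removal of doublets and outliers, and thinning; T limited by Tshb and, for the contrasts of sex differences, those with T and the alternatives on cells and thinning were added after the data were seen. The promoters of Gh1 and Fshb were not analysed here. Some other genes that the rules name are not reported here.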

Additional observations from a re-analysis of the deposited data

Results flagged for a closer look

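Differences between the cell types in their male minus female log2 difference, tested directly with edgeR, set 5 results apart. For Neurod4 the difference was 1.42 between L and S, 2.94 between L and G and 1.52 between S and G, the last of which was lost under scaling by library size (1.30), without lane 2 (1.37), without lane 4 (0.92) and in cells thinned to 4000 UMIs (1.45). For Gata2 it was -2.43 between T and G and -2.60 between T and S, and both kept their call under the 12 alternatives run, ranging over -1.79 to -2.96 and -2.02 to -3.25, though the sex difference within T on its own did not. Both contrasts with T were added after the opposite directions in the separate types had been seen, so they are no independent test of them.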

How the results depend on the processing

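Between the sexes no paired analysis was possible, since they are separate pools. The labels number the samples 1 and 2 in each sex, but the lanes cannot be matched to those numbers. Contrasts between types, and between S with and without Gata2, took lane as a block and so compared sums within lanes. The contrasts of sex differences between types had 1 group per type and sex and no term for lane. They therefore left out that the types share lanes. Of the 49 calls of factors between types, 40 kept direction and call under each alternative. The reversed values were Neurod1 in T minus FSC, at -2.65 without the cells typed by neighbours and -3.01 with T limited by Tshb, and Pou1f1 between the sexes in L, at 0.43 by library size alone. DESeq2 made 3 rather than 5 sex calls. Between S with and without Gata2, 15 genes were called, against 23 by library size alone, 1 by DESeq2, 26 with no filter and 7 to 23 with a lane left out. Factor and type pairs detected in at least 20% of cells (Pax7 left out) numbered 15 with all UMIs, 13 at 4000 UMIs and 9 at 2000 UMIs. Pairs of factors higher together in every lane numbered 1, or 3 without thinning and 2 to 4 with a lane left out. The causes were not tested. Shares of cells, and counts in T and melanotrophs above all, are limited by depth and cell number.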
